A study of Mus musculus with 5 samples.

Results

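The CC chemokine genes Ccl2, Ccl3, Ccl4, Ccl5, Ccl6, Ccl7, Ccl8, Ccl9, Ccl11 and Ccl12, were examined as a family of 10. They were taken by symbol, joined through the Ensembl gene identifier, and are 10 of the 46983 genes counted. All 10 passed the filter on low counts, which kept 14580 genes. The cells came from orthotopic tumours of EO771, a line derived from a mammary carcinoma of the mouse, in animals whose strain is labelled C57/BL6. In the Treg-ablated group (2 libraries) regulatory T (Treg) cells had been removed by diphtheria toxin (50 µg per kg, given in 2 doses), and the cells were sorted 4 days afterwards. For the control group (3 libraries) no toxin dose is listed. An effect of the toxin and one of Treg loss therefore cannot be told apart from these labels. The allele that makes Treg cells sensitive to the toxin and the age of the mice are not given in the sources used here. All 5 libraries are labelled as tumour-associated macrophages, sorted as CD45+ CD11b+ Ly6G- F4/80+ cells.

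Chemokines are small secreted proteins that bind G protein-coupled receptors on leukocytes and direct their migration along a gradient. In the CC family the first cysteines of the conserved set stand next to each other, which gives the family its name. CCL2, CCL7 and CCL12 act on CCR2 and draw inflammatory monocytes out of the bone marrow and into tissue. CCL3, CCL4 and CCL5 attract monocytes and effector T cells. CCL11, the eotaxin, acts on CCR3 of eosinophils. CCL6 and CCL9 are rodent chemokines that act on CCR1. In tumours, macrophages, fibroblasts and tumour cells can all make CCL2.

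The adjacent cysteine codons that define the family are printed below for 9 members, to show how far the members differ around the one feature that they share. Each line gives 30 coding bases, 5′ to 3′ on the coding strand, from the GENCODE M21 transcripts (GRCm38), with the codon pair in capitals.
Ccl2: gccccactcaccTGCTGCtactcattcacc
Ccl7: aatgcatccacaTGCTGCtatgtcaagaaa
Ccl11: atcccaacttccTGCTGCtttatcatgacc
Ccl12: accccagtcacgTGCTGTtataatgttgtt
Ccl8: gctccagtcaccTGCTGCtttcatgtacta
Ccl5: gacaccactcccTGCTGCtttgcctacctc
Ccl9: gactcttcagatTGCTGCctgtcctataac
Ccl6: acttcttcagacTGCTGCttctcttatgcc
Ccl4: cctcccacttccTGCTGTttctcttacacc
The pair read TGC and TGC in 8 members, and TGC and TGT in Ccl12 and Ccl4. It lay in exon 2 of 8 members and in exon 3 of Ccl6 and Ccl9, which have 4 exons where the others have 3. For Ccl2 the bases printed lie at chr11:82036494-82036523 on the plus strand, and for Ccl9 at chr11:83575914-83575943 on the minus strand. Over the 45 pairs of members, identical aligned bases made up between 41.7% and 69.6% of the longer coding sequence of the pair. Ccl2 has the longest, with 444 coding bases, which lowers this share in all its pairs. By this measure Ccl3 and Ccl4 were the closest pair, followed by Ccl7 and Ccl11 (67.0%) and by Ccl6 and Ccl9 (66.1%). The longest stretch of identical coding bases between any pair was 23 bases, against reads of 125 bases. No run of 50 bases from the transcripts of 9 members occurred in a transcript of another gene. In Ccl9, 59 of 2996 such runs did, none of them in another member. The authors' counting used no strand option. A predicted antisense gene, Gm17268, overlaps Ccl2 and had 2 counts over all 5 libraries.

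Library totals ran from 13122668 to 20156835 counts. The labelled cell type was checked against 12 marker lists. Markers were called higher or lower by the edgeR test given below, at an adjusted p under 0.05. By that test 13.5% of all genes tested were higher and 12.3% lower. Summed over 12 macrophage markers (Adgre1 and Csf1r among them), the level was 152.9 and 136.0 CPM (counts scaled to a library total of 1000000) in the Treg-ablated libraries and 263.8 to 277.2 CPM in the controls. Summed over 12 fibroblast markers (Col3a1 and Pdgfra among them), it was 11470 and 12150 CPM after ablation and 10400 to 12540 CPM in the controls, above the macrophage sum in every library. Col3a1 made up most of that sum (7467 to 9556 CPM, not passed), and without it the sum was 2769 and 2771 CPM against 2889 to 2985 CPM. Of the 12 fibroblast markers 5 were lower (Col1a1, Col1a2, Pdgfrb, Postn and Fbln2, with log2 fold changes from -0.90 to -0.39) and Dcn was higher (0.40). Summed over 12 T cell markers, it was 77.5 and 78.5 CPM after ablation and 33.1 to 41.2 CPM in the controls, with 10 of the 12 higher. Thy1, which is also on the fibroblast list, did not pass, and without it the T cell sum was 50.0 and 54.1 CPM against 14.5 to 18.1 CPM. The 10 cytotoxic T and NK cell markers summed to 75.7 and 77.0 CPM against 23.0 to 26.4 CPM, and the 10 monocyte markers to 230.0 and 179.4 CPM against 312.2 to 343.2 CPM. Fewer cells of a type and less RNA per cell cannot be told apart in these libraries. Of the other lists, 6 of 8 B cell markers tested and 6 of 6 mast cell markers tested were higher, with sums of 57.9 and 73.1 CPM against 15.9 to 19.2 CPM and of 43.9 and 47.3 CPM against 20.2 to 28.9 CPM. Of 7 dendritic cell markers tested 1 was higher and 1 lower, near the shares over all genes tested. Of 9 neutrophil markers 2 were tested and 1 was higher, while 0 of the 6 endothelial and 0 of the 4 epithelial and tumour markers that were tested passed (8 of each were listed). The epithelial and tumour list summed to 301.3 and 258.7 CPM after ablation and 292.4 to 317.3 CPM in the controls. That was above the macrophage sum in every library, and most of it came from Krt18 and Krt8. Sums over different lists are not scaled for gene length, so setting them against the macrophage sum does not rank cell types. The part that these cell types have in the chemokine values below was not tested.

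Most of the family rose after Treg ablation, by modest folds. Of the 10 members, 6 rose (Ccl2, Ccl3, Ccl5, Ccl7, Ccl8 and Ccl11), Ccl9 fell, and Ccl4, Ccl6 and Ccl12 did not pass. The test was the quasi-likelihood test of edgeR with Benjamini-Hochberg adjustment over all genes tested and a threshold of 0.05. Over all genes tested, 13.5% were higher and 12.3% lower by the same rule. The members' median log2 fold change was 0.37 and that of all genes tested was -0.01. Both Treg-ablated libraries lay above all controls for 7 members and below all controls for 1, where 26.9% and 25.6% of all genes tested did so. In all 10 members, Treg-ablated replicate 1 was above Treg-ablated replicate 2. The count of higher members depended on single libraries: 2 were higher without Treg-ablated replicate 1, without control replicate 1 or without control replicate 2, and 4 without control replicate 3. Ccl2 and Ccl3 passed in each of these fits.

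**Figure D1:**
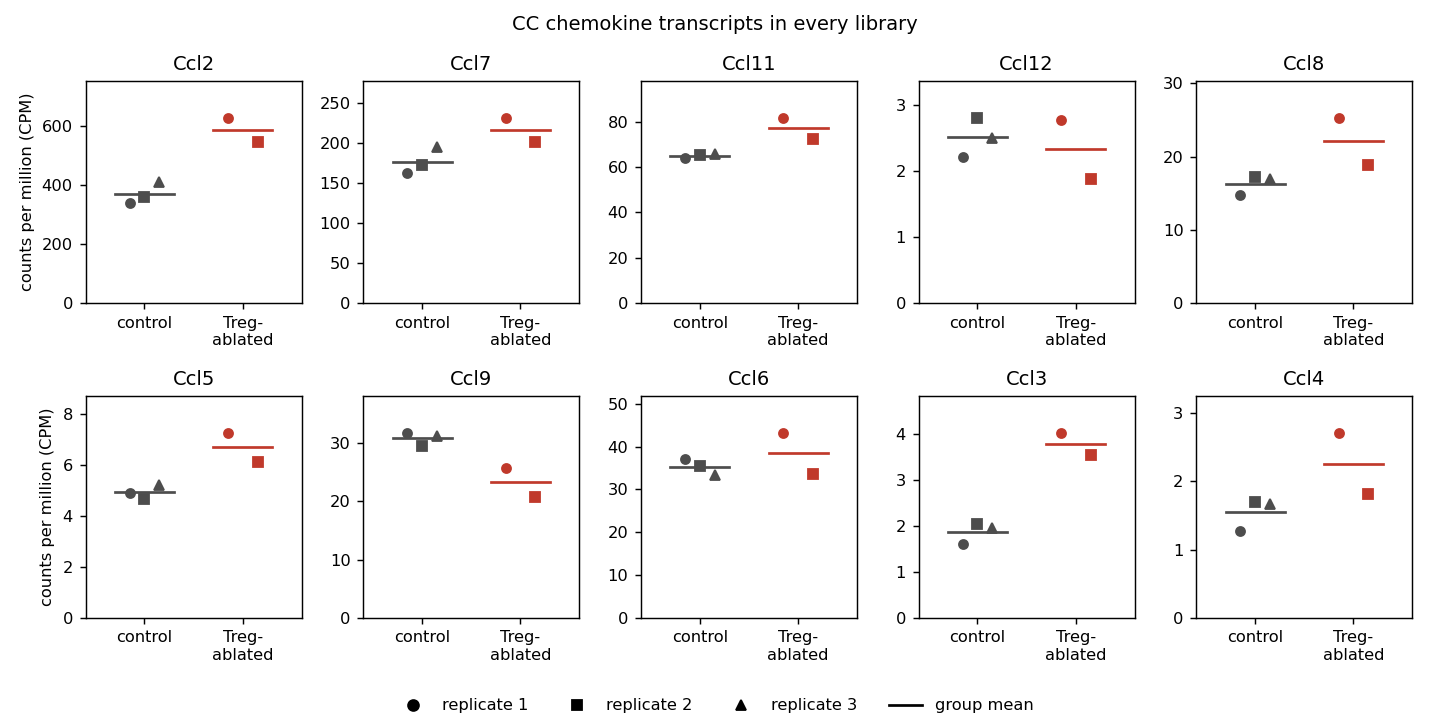
Level of each CC chemokine gene in every library, in CPM on axes that start at 0; symbols are libraries, lines are group means (3 control, 2 Treg-ablated), and genes are in chromosomal order. Both Treg-ablated libraries lie above all controls for 7 genes and below them for Ccl9, and Treg-ablated replicate 1 is above replicate 2 in all 10 panels.

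Of the CCR2 ligands, Ccl2 rose most clearly. Ccl2 (ENSMUSG00000035385, chromosome 11, 82035571 to 82037453, GRCm38), the main attractant of inflammatory monocytes, had 627.2 and 546.4 CPM in the Treg-ablated libraries and 337.2, 357.5 and 409.3 CPM in the controls. The groups did not overlap, and the lower Treg-ablated library stood well above the highest control. The mean went from 368.0 ± 37.2 CPM (SD, n = 3) to 586.8 ± 57.1 CPM (SD, n = 2), a 1.595-fold rise (log2 fold change 0.67, SE 0.09, adjusted p = 0.0011). Ccl7 (ENSMUSG00000035373, 82045712 to 82047525), which binds CCR1 and CCR3 besides CCR2, had 231.3 and 201.6 CPM after ablation and 162.5, 171.9 and 195.4 CPM in the controls. Its groups touched closely, with control replicate 3 just under Treg-ablated replicate 2. The rise was 1.23-fold (log2 fold change 0.29, SE 0.09, adjusted p = 0.0353). The Ccl7 call ended without Treg-ablated replicate 1 (adjusted p = 0.191), control replicate 1 (0.0913) or control replicate 2 (0.141). Ccl12 (ENSMUSG00000035352, 82101845 to 82103400), a CCR2 ligand found in the mouse, was low. It had 2.77 and 1.89 CPM after ablation and 2.22, 2.80 and 2.51 CPM in the controls. These groups overlapped, and Ccl12 did not pass (log2 fold change -0.10, 95% interval -0.63 to 0.43, adjusted p = 0.79). The interval rests on 25 to 56 counts per library.

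Ccl8 and Ccl11, from the same stretch of chromosome 11, rose less firmly. Ccl8 (ENSMUSG00000009185, 82115185 to 82116799), which in the mouse acts on CCR8, had 25.3 and 18.9 CPM in the Treg-ablated libraries and 14.8, 17.2 and 17.0 CPM in the controls. Replicate 1 of the Treg-ablated group was the high one, and replicate 2 was just above the controls. The fold was 1.36 (log2 fold change 0.44, SE 0.13, adjusted p = 0.0321). Without Treg-ablated replicate 1 the log2 fold change of Ccl8 was 0.21 (adjusted p = 0.31). It also did not pass without control replicate 1 (adjusted p = 0.0824) or control replicate 2 (0.0897). Ccl11 (ENSMUSG00000020676, 82057823 to 82062955), the eosinophil attractant, had 81.8 and 72.5 CPM after ablation and 63.9, 65.4 and 65.8 CPM in the controls. The controls were tightly grouped and both Treg-ablated libraries were above them. Its fold was 1.19 (log2 fold change 0.25, SE 0.07, adjusted p = 0.0319), and of the 5 fits that left out a library only that without Treg-ablated replicate 2 kept the call. The adjusted p was 0.238 without Treg-ablated replicate 1, and 0.0714, 0.118 and 0.0518 without control replicates 1, 2 and 3. DESeq2 gave an adjusted p of 0.0688. Eosinophil transcripts were scarce: of 8 eosinophil markers, Epx and Ear1 had 0 counts in all 5 libraries. The list summed to 7.82 and 7.69 CPM after ablation and 4.74 to 6.36 CPM in the controls. Of its markers 3 were tested and 0 passed.

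Ccl3 had the largest fold of the family, from a low level. Ccl3 (ENSMUSG00000000982, 83647844 to 83649355), which encodes MIP-1α and attracts monocytes and T cells, had 4.04 and 3.55 CPM in the Treg-ablated libraries and 1.61, 2.05 and 1.95 CPM in the controls. Every Treg-ablated library was clearly above every control. The mean rose 2.01-fold, from 1.87 ± 0.231 to 3.79 ± 0.346 CPM (SD, n = 3 and n = 2; log2 fold change 1.01, SE 0.21, adjusted p = 0.00665). These levels come from 24 to 64 counts per library. Its neighbour Ccl4 (ENSMUSG00000018930, 83662584 to 83664683), which encodes MIP-1β, had 2.71 and 1.81 CPM after ablation and 1.28, 1.70 and 1.67 CPM in the controls. Both libraries were above the controls, replicate 2 by little, and Ccl4 did not pass (log2 fold change 0.55, 95% interval -0.04 to 1.14, adjusted p = 0.155). Ccl5 (ENSMUSG00000035042, 83525778 to 83530518), known as RANTES and made in quantity by activated T and NK cells, had 7.25 and 6.11 CPM after ablation and 4.90, 4.66 and 5.23 CPM in the controls. The groups did not overlap, and the rise was 1.37-fold (log2 fold change 0.45, SE 0.15, adjusted p = 0.0489). The call on Ccl5 lay at the threshold. It ended with DESeq2 (adjusted p = 0.184), with RLE size factors (0.0516) and also with limma-voom (0.0504). The adjusted p was 0.28 when Treg-ablated replicate 1 was left out, and 0.0932, 0.168 and 0.0679 when control replicates 1, 2 and 3 were. T cell markers moved in the same direction, as given above, with Cd3e at 4.85 and 5.13 CPM after ablation and 1.65 to 1.95 CPM in the controls.

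The CCR1 ligands Ccl6 and Ccl9 did not rise. Ccl9 (ENSMUSG00000019122, 83572919 to 83578636), made by macrophages and other myeloid cells, had 25.8 and 20.7 CPM in the Treg-ablated libraries and 31.8, 29.6 and 31.2 CPM in the controls. Both Treg-ablated libraries were below all controls. The mean fell from 30.9 ± 1.13 to 23.3 ± 3.57 CPM (SD, n = 3 and n = 2), 1.32-fold (log2 fold change -0.40, SE 0.10, adjusted p = 0.018). Without Treg-ablated replicate 2 the log2 fold change of Ccl9 was -0.25 (adjusted p = 0.128), and without control replicate 2 it did not pass either (adjusted p = 0.0653). Ccl6 (ENSMUSG00000018927, 83587882 to 83593087), its closest relative in the family, had 43.2 and 33.6 CPM after ablation and 37.0, 35.4 and 33.4 CPM in the controls. One Treg-ablated library was above the controls and the other lay within their range, so the groups overlapped (log2 fold change 0.13, 95% interval -0.11 to 0.36, adjusted p = 0.411). Macrophage markers were lower where Ccl9 was lower: 9 of the 12 passed as lower and 0 as higher. Over all genes tested, 12.3% were lower and 13.5% higher. Csf1r was among the lower markers, at 22.3 and 20.5 CPM against 44.2 to 52.5 CPM in the controls.

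**Figure D2:**
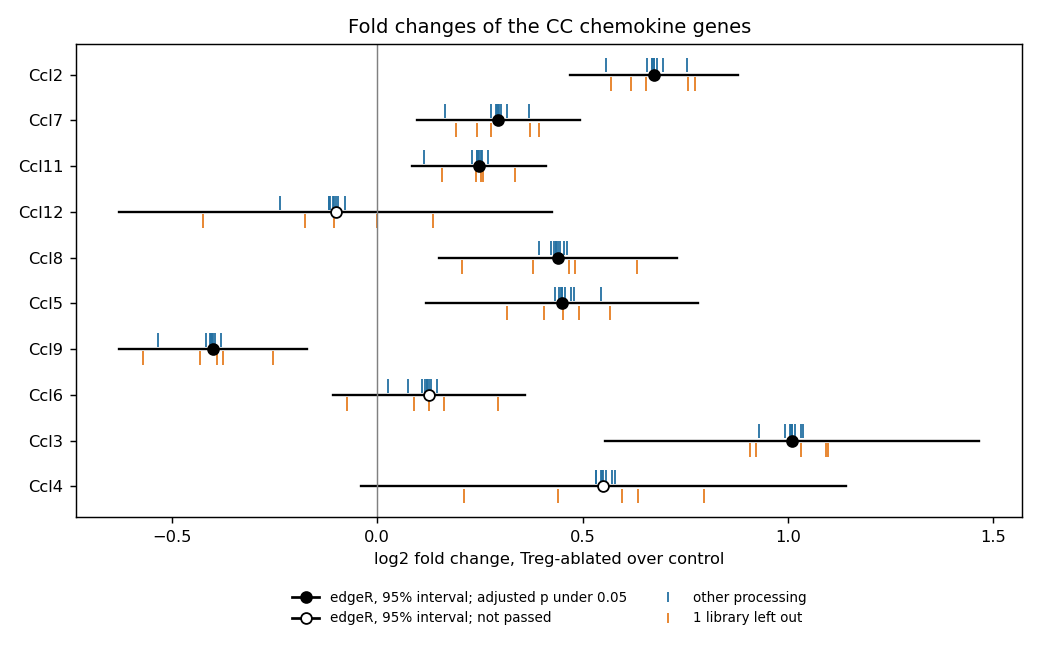
Log2 fold change of each CC chemokine gene, Treg-ablated over control, with its 95% interval from the edgeR fit; filled circles passed at an adjusted p under 0.05 and open circles did not. Blue ticks above each line are fits with other processing and orange ticks below it are fits without 1 library; those of Ccl2 lie between 0.56 and 0.77 and those of Ccl3 between 0.91 and 1.10, while those of Ccl6 and Ccl12 fall on both sides of 0.

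Per kilobase of exon, the scale on which genes can be compared, the family covered a wide range. In the controls Ccl2 had 323.4 ± 32.7 CPM per kilobase and Ccl7 220.4 ± 21.1, followed by Ccl11 at 60.1 ± 0.912, Ccl8 at 31.9 ± 2.61, Ccl6 at 19.7 ± 0.998 and Ccl9 at 10.1 ± 0.372 (SD, n = 3). The control libraries of each of these genes lay apart from those of the next gene in the order. Ccl5 (5.13 ± 0.297) and Ccl12 (4.67 ± 0.547) overlapped, as did Ccl3 (2.44 ± 0.301) and Ccl4 (2.35 ± 0.360). Ccl2 was thus 137.7-fold above Ccl4 in level, although Ccl3, at a similar level to Ccl4, had the largest fold change. Summed over the 10 members the level was 1051 and 907.0 CPM after ablation and 657.2, 688.1 and 763.4 CPM in the controls. Ccl2 alone made up 59.7% and 60.3% of that sum after ablation and 51.3% to 53.6% in the controls.

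Ratios within a library do not depend on how libraries are scaled. The ratio of Ccl7 to Ccl2 counts was 0.369 in both Treg-ablated libraries and 0.482, 0.481 and 0.477 in the controls. The spread within each group was small beside the distance between them. The ratio of Ccl11 to Ccl2 was 0.130 and 0.133 after ablation and 0.161 to 0.190 in the controls. The ratio of Ccl9 to Ccl6 was 0.597 and 0.618 after ablation and 0.836 to 0.933 in the controls. The ratios of Ccl8 to Ccl2, Ccl12 to Ccl2 and Ccl4 to Ccl3 were also lower in both Treg-ablated libraries than in every control. The pairs were chosen after the levels had been seen, and 4 of the 6 divide by Ccl2, so these ratios are a description with no test.

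**Figure D3:**
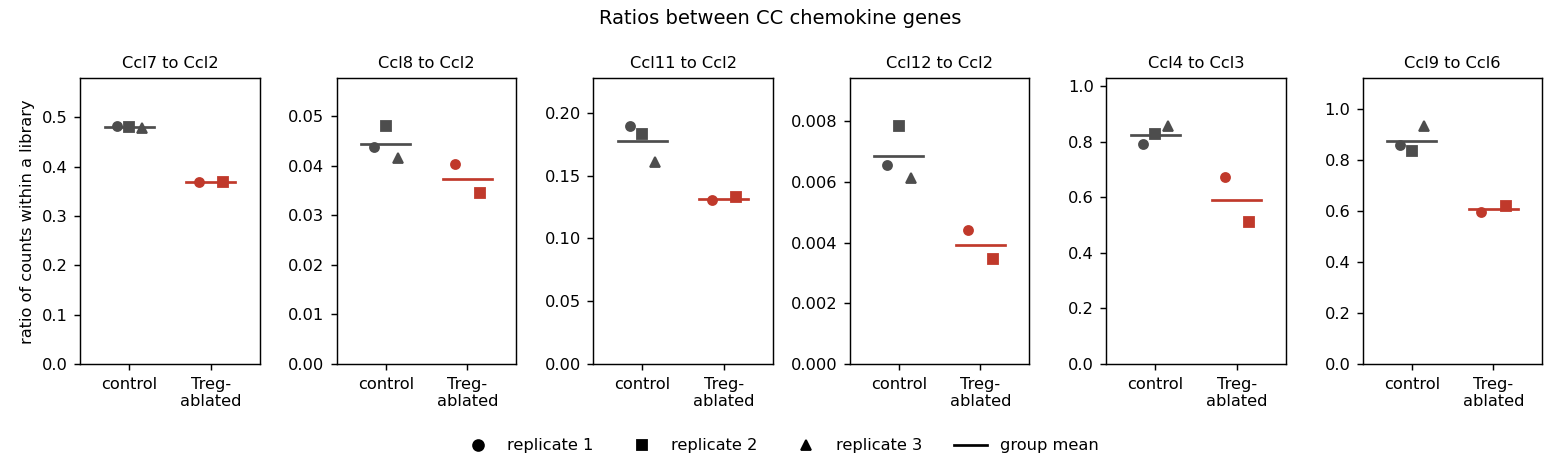
Ratio of counts between 2 CC chemokine genes within each library, on axes that start at 0; symbols are libraries and lines are group means (3 control, 2 Treg-ablated). In each of the 6 panels both Treg-ablated libraries lie below all 3 controls, with Ccl7 to Ccl2 at 0.369 against 0.477 to 0.482.

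The 10 genes lie on chromosome 11 in a pair of groups 1409 kb apart. Ccl2, Ccl7, Ccl11, Ccl12 and Ccl8 span 81.2 kb and are all on the plus strand. Ccl5, Ccl9, Ccl6, Ccl3 and Ccl4 span 138.9 kb, and of these only Ccl4 is on the plus strand. In the first group 4 of 5 genes rose and Ccl12 did not pass. Of those that rose, only Ccl2 was stable. Ccl7, Ccl8 and Ccl11 did not pass with the GC offset described below, nor without control replicate 1 or control replicate 2. In the second group, Ccl5 and Ccl3 rose, Ccl9 between them fell, and 2 did not pass. Over all genes tested, 13.5% were higher and 12.3% lower. Summed levels of the first group were 968.3 and 841.2 CPM after ablation and 580.6 to 689.9 CPM in the controls. Those of the second group were 83.0 and 65.8 CPM against 73.4 to 76.6 CPM, which overlapped. Ccl2 alone had 627.2 and 546.4 CPM of the first group's sum after ablation and 337.2 to 409.3 CPM in the controls.

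**Figure D4:**
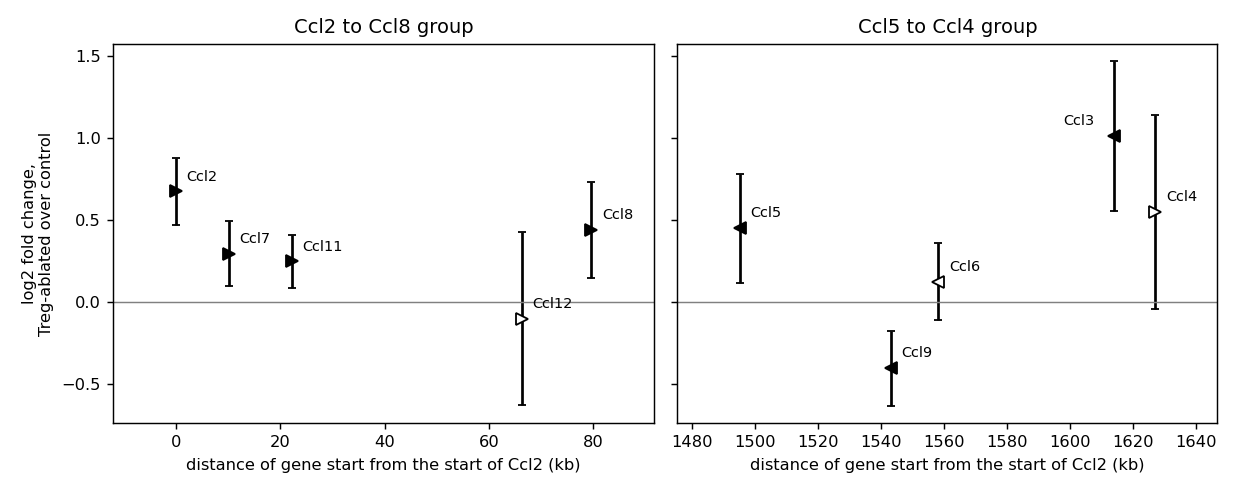
Log2 fold change with its 95% interval against the distance of each gene's start from that of Ccl2 in kb, in the 2 groups of genes on chromosome 11; arrowheads point in the direction of transcription and are filled where the gene passed. In the first group 4 of 5 genes passed as higher, while Ccl9 is lower and Ccl3 and Ccl5 higher in the second. Over all genes tested 13.5% were higher and 12.3% lower.

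Promoter sequences were looked up for all members and found for 5 of 10 (Ccl3, Ccl6, Ccl8, Ccl9 and Ccl12) in the RefSeq table of GRCm38.p6, each running from 250 bases before the gene's start to 50 after it. Those of Ccl3, the member with the largest rise, and Ccl9, the member that fell, are given here, 5′ to 3′ on the coding strand, with matches to the searched motifs in capitals. They cover chr11:83649329-83649628 and chr11:83578587-83578886, both on the minus strand. The table's start of Ccl3 differs from that in the count files.
Ccl3: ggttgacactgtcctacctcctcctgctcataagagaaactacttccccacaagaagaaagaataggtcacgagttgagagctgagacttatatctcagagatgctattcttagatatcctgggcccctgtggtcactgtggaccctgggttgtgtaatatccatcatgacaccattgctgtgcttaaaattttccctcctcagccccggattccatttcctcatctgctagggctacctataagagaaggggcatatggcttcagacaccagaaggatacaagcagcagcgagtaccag
Ccl9: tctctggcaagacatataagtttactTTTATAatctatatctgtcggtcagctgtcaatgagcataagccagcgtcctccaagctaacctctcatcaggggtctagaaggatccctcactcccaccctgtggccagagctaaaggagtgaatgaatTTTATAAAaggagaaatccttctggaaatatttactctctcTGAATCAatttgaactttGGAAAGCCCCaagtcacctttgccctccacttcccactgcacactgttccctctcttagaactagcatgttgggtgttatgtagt
The motifs, searched on both strands, were an NF-kB core (GGG, any 5 bases, CC), a GAS element (TTCNNNGAA), an ISRE core (GAAA, any 2 bases, GAAA), an AP-1 site (TGANTCA) and a TATA box (TATAAA). Of the 32851 promoter windows in the table, 50.8%, 8.30%, 3.44%, 7.81% and 13.6% held them. The Ccl3 window held none of these letters. The Ccl9 window held the NF-kB core at -35 to -26, the AP-1 site at -53 to -47 and TATA box letters at 3 places, 2 of which overlap (positions from the first transcribed base, which is 1). Ccl8 and Ccl12 held a TATA box at -32 to -27 and -31 to -26, and Ccl6 held no match. Of the 5 members' windows 1 held the NF-kB core and 0 held a GAS element or an ISRE core.

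Of 15 CC receptor genes listed, 7 were tested, with 2 higher (Ccr7 and Ccrl2), 1 lower (Ccr2) and 4 that did not pass (Ccr1, Ccr3 and Ccr10 among them). Among all genes tested 13.5% were higher and 12.3% lower, so counts from so short a list say little about the list. Ccr2, the receptor for CCL2, CCL7 and CCL12 on inflammatory monocytes, had 15.5 and 15.4 CPM in the Treg-ablated libraries and 41.5, 36.9 and 30.4 CPM in the controls. It fell 2.35-fold (log2 fold change -1.23, SE 0.13, adjusted p = 0.000313) while its main ligand rose. The ratio of Ccl2 to Ccr2 counts was 40.6 and 35.5 after ablation and 8.14, 9.69 and 13.5 in the controls. Summed monocyte markers, of which Ccr2 is 1, were lower too. Ccr1 had 9.58 and 7.02 CPM after ablation and 11.4, 11.3 and 9.13 CPM in the controls and did not pass (log2 fold change -0.35, 95% interval -0.70 to 0.0032, adjusted p = 0.132). Ccr3, the eotaxin receptor, had 1.51 and 1.13 CPM against 0.672, 1.10 and 0.906 CPM (log2 fold change 0.55, 95% interval -0.17 to 1.27, adjusted p = 0.241). The scavenging receptor gene Ackr2, whose product degrades CC chemokines, had 2 to 10 counts per library and was not tested.

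Ccr7, which guides dendritic cells and T cells to lymph nodes, had 9.58 and 8.52 CPM after ablation and 5.44, 5.36 and 6.20 CPM in the controls. It rose 1.61-fold (log2 fold change 0.69, SE 0.14, adjusted p = 0.00578). Ccrl2, a chemerin-binding relative of the receptors, was 1.296-fold higher (adjusted p = 0.0411). That call on Ccrl2 did not hold in 9 of 14 other fits, 4 of which left out 1 library (Treg-ablated replicate 1 or 2, control replicate 1 or 2).

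**Figure D5:**
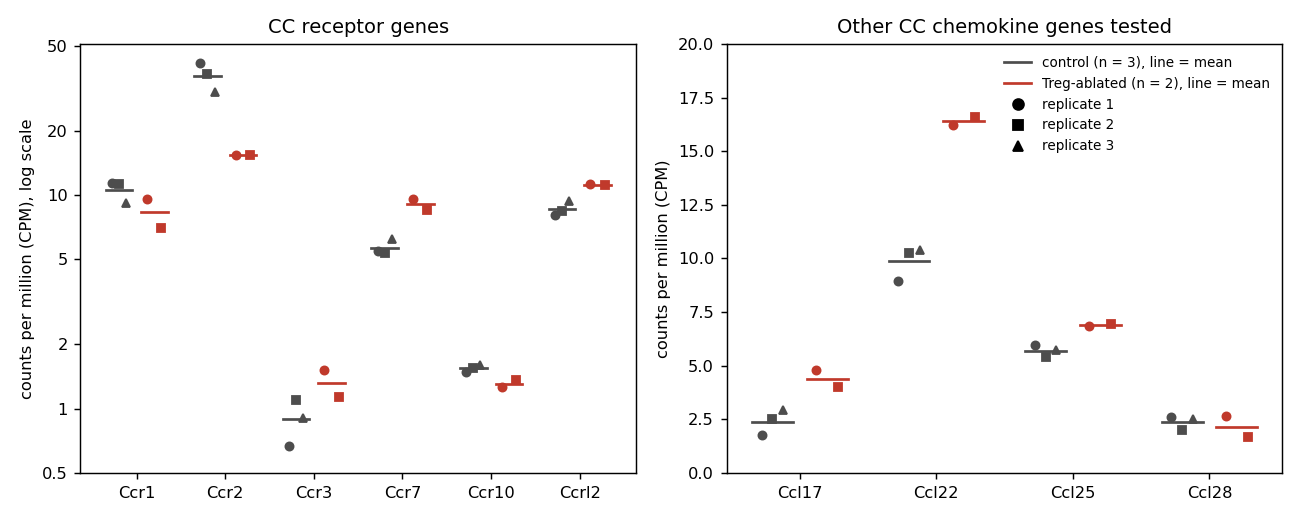
Levels of 6 CC receptor genes tested (left, log axis) and of the 4 other CC chemokine genes tested (right, axis from 0), in CPM; symbols are libraries, lines are group means, grey is control (3 libraries) and red is Treg-ablated (2 libraries). Ccr2 lies at 15.4 to 15.5 CPM after ablation and at 30.4 to 41.5 CPM in the controls, and Ccl22 is higher in both Treg-ablated libraries.

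Of 14 other CC chemokine genes listed, 13 were matched by symbol and 4 were tested, with a median log2 fold change of 0.51. Ccl22 and Ccl17, the CCR4 ligands that attract Treg and other T cells, were higher, as were 13.5% of all genes tested. Ccl25 and Ccl28 did not pass. Ccl22 had 16.2 and 16.6 CPM after ablation and 8.94, 10.3 and 10.4 CPM in the controls (log2 fold change 0.73, SE 0.11, adjusted p = 0.0017). Ccl17 had 4.79 and 4.00 CPM against 1.75, 2.50 and 2.93 CPM (log2 fold change 0.88, SE 0.22, adjusted p = 0.0173), but it no longer passed when Treg-ablated replicate 1 (adjusted p = 0.0848) or control replicate 2 (0.0688) was left out. The remaining 9 matched genes, Ccl19, Ccl20 and Ccl24 among them, had at most 10 counts in any library.

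Among 19 listed inducers and regulators of CC chemokines, 18 were tested, of which 8 rose, 2 fell and 8 did not pass, with a median log2 fold change of 0.30. Shares over all genes tested were 13.5% higher and 12.3% lower. The genes higher included feedback inhibitors of NF-kB, the transcription factor that drives many chemokine genes. Nfkbia, which encodes the inhibitor IκBα, had 976.7 and 869.1 CPM after ablation and 530.9, 570.0 and 602.4 CPM in the controls, a 1.63-fold rise (adjusted p = 0.000449). Tnfaip3, which encodes the inhibitor A20, also rose 1.63-fold and Nfkbiz 1.55-fold, while the subunit gene Nfkb1 rose 1.28-fold and Rela did not pass (log2 fold change -0.06). Irf1, of the interferon response, rose 1.67-fold. Zfp36, whose product promotes decay of cytokine mRNAs, rose 1.38-fold and the cytokine gene Il6 1.74-fold (without control replicate 2, Il6 did not pass). Il4ra and Stat6, of the IL-4 pathway that induces CCL11, had log2 fold changes of -0.20 and -0.23 and passed as lower, but not firmly. Il4ra did not pass in 10 of 14 other fits, among them each that left out 1 library (adjusted p = 0.0688 to 0.194). Stat6 did not pass in 7, among them those without Treg-ablated replicate 1 (adjusted p = 0.192) or without control replicate 1, 2 or 3 (0.0789, 0.0949 and 0.0512). With the GC offset described below their log2 fold changes were -0.063 and -0.12 (adjusted p = 0.525 and 0.267). Tnf had 2.59 and 2.79 CPM against 1.55 to 2.86 CPM, and Il1b 38.1 and 30.9 CPM against 38.1 to 38.9 CPM. Neither of these inducers passed (adjusted p = 0.648 and 0.27).

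Of 17 listed genes that carry the receptor signal, 3 rose (Rac1, Rac2 and Rgs1), 5 fell (Grk2, Grk6, Arrb1, Vav1 and Ptk2b) and 9 did not pass, with a median log2 fold change of -0.03, where 13.5% of all genes tested were higher and 12.3% lower. Rac2, a GTPase of blood cells needed for migration, rose 1.75-fold, from 10.9 ± 0.733 to 19.2 ± 0.192 CPM. Rgs1, which shortens the G protein signal, rose 1.69-fold. Arrb1, which encodes the β-arrestin 1 that uncouples receptors, fell 1.496-fold, from 21.8 ± 0.791 to 14.6 ± 1.17 CPM (SD, n = 3 and n = 2). The calls on Grk2, Grk6, Vav1 and Ptk2b, with log2 fold changes between -0.53 and -0.24, ended with a correction for GC content. Counting that correction, these genes did not pass in 5, 7, 6 and 8 of 14 other fits. For each gene, these included the fit with replicate number as a block.

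Base composition moved with the results. The members' transcripts had between 42.1% and 52.8% GC, and 5 of the 10 fell in the lowest of 4 equal bins of the genes tested, whose median log2 fold change was 0.14, against -0.15 in the highest bin. With an offset for GC content, 3 of the 6 members kept their rise: Ccl2 (log2 fold change 0.56, adjusted p = 0.00566), Ccl3 (0.93, adjusted p = 0.0142) and Ccl5 (0.54, adjusted p = 0.0276). Ccl7, Ccl8 and Ccl11 did not pass with it (log2 fold changes 0.16, 0.39 and 0.11, adjusted p = 0.279, 0.0669 and 0.341). Ccl9 remained lower (log2 fold change -0.53, adjusted p = 0.00905).

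Genes with the most similar pattern over the 5 libraries were sought for the member with the highest level and for the one with the largest change. For Ccl2 they included Jkamp, Tceal8, Rdh14 and Ywhae, and for Ccl3 they were Atn1, Crem, Dnajc25, Socs1 and Tex30, with Pearson's r between 0.9977 and 0.9992 for log2 CPM values. Of 9213 genes compared, 599 and 549 had an r above 0.95, so over 5 libraries in 2 groups such values are common. They are a description across libraries that share the group difference, and carry no test.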

How the data were processed

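RNA was sequenced as 125 bp paired reads from 5 libraries. The authors counted reads over exons, summed by gene, with featureCounts 1.6.2 per the file headers, which name a filtered GRCm38 annotation (Ensembl 83) and show no strand or multi-mapping option. The deposited values are raw counts. The submitters' processing notes list Trimmomatic 0.33, DESeq2 1.16.1, FastQC 0.11.5 and Subread 1.6.2. Groups and replicate numbers come from the sample titles, and symbols were found for 46488 of 46983 genes.

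Genes kept by filterByExpr were scaled by TMM and tested over the whole table in edgeR 4.0.16 (R 4.3.3) by its quasi-likelihood F test, with no block. CPM are counts per TMM-scaled library size. Each SE was taken as the ratio of the log2 fold change to √F, and 95% intervals use its t distribution. A count of 3 equals 0.150 to 0.226 CPM per library. Correlations for likeness used genes with a mean of at least 8 CPM. Replicates differed beyond sampling noise (chi-square per degree of freedom 4.16 to 7.67), so none was merged. The labels do not say whether each library is a different animal, so the p-values reflect only how far these libraries vary, possibly for technical reasons.

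Named genes are all 10 members, genes of the receptor, other chemokine, inducer and signal lists that passed, and receptors of the members. Others (Tnf, Il1b, Rela, the marker genes) were chosen after their values were seen. The members, the lists and the alternatives were chosen with earlier results of these data known. Alternatives were RLE (edgeR), library size alone, filters of 1 count in any library and of a mean of 1 CPM, DESeq2 1.42.0, limma-voom 3.58.1, a test against a fold of 1.5, a replicate block, a lowess offset on GC content of the longest GENCODE M21 transcript, and leaving out each library. Leaving out a Treg-ablated library leaves 1, assumed to vary like the controls. Some genes of these lists and 1 member's coding window are not reported here.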

Additional observations from a re-analysis of the deposited data

How the results depend on the processing

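Of 140 values of the 10 members under the 14 alternatives, 106 kept their direction and side of the threshold, 32 kept the direction but no longer passed, and 2 reversed, both in genes that did not pass: Ccl6 (log2 fold change between -0.073 without Treg-ablated replicate 1 and 0.29 without replicate 2) and Ccl12 (between -0.42 and 0.14, without the same libraries). All 32 of those that no longer passed came from the 7 members called. Part of the 106 came from Ccl4, Ccl6 and Ccl12, which passed in 0 fits and so had no call to lose. Tested for a change beyond 1.5-fold, 98 of all genes passed as higher and 23 as lower, and 0 members, 0 other CC chemokines and 0 receptors were higher and 0 members lower. With the replicate number as a block 1296 genes were higher and 1116 lower, 4 members were higher (Ccl11 and Ccl5 no longer passed, adjusted p = 0.138 and 0.108) and 1 receptor. The shared numbers come from the titles. Deviations of same-numbered libraries from their group means correlated at -0.23 for number 1 and -0.02 for number 2. The deviations of the 2 Treg-ablated libraries mirror each other, so these values cannot decide whether libraries were paired. Only 1 receptor was higher with the filter of 1 count in any library and with DESeq2, which called 4 members higher. With the GC offset 3 members and 1 receptor were higher and 2 receptors lower. Leaving out 1 library gave between 812 and 1687 genes higher and between 554 and 1538 lower, 2 to 6 members higher and 0 to 1 lower, 1 to 2 receptors higher and 1 to 2 lower, and 1 to 2 other CC chemokines higher. Depth limits Ccl3, Ccl4, Ccl5 and Ccl12, which had at most 115 counts in a library. The cause of these changes was not tested.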
